A study of Homo sapiens with 28 samples.

Results

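MYC, JUND, the cohesin loader NIPBL, the cohesin subunits RAD21 and SMC3, and monomethylated histone H3 lysine 4 (H3K4me1) were followed at the loci of 7 growth genes that MYC is known to bind: NCL, NPM1, FBL, NOP56, ODC1, CAD and LDHA. The values are peaks from chromatin immunoprecipitation followed by sequencing (ChIP-seq), that is, stretches of the genome where sequenced fragments recovered with an antibody pile up. A peak belonged to a locus when it lay within 50 kb of a fixed hg18 position of the gene. By this rule the 7 loci held 239 of the 393268 peaks in the 22 lists of the series, 125 of 235159 under control siRNA and 114 of 158109 under RAD21 siRNA. The genes were listed as known MYC targets, and the rule uses no measured value.

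The cells were GP5d, a human line established from a colon adenocarcinoma. Cells received 50 nM of a small interfering RNA (siRNA), either a neutral control or an siRNA against RAD21, and were collected 72 h later. The series examines transcription factor binding with and without RAD21 siRNA. It holds 28 libraries, of which 22 had a peak list, with 11 targets under either siRNA, and 6 were immunoglobulin G (IgG) background libraries. With 1 library per target and siRNA no difference between the siRNAs could be tested against replicate spread. A peak present in 1 list and missing from the other is therefore a description of those libraries. The labels state that the knockdown was followed by RNA and protein assays, whose values were not analysed here, and no RNA was measured in these files.

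MYC is a transcription factor that, paired with MAX, binds E-box sequences and drives cell growth, ribosome production and metabolism. JUND is an AP-1 factor that joins other AP-1 proteins on a different DNA motif. Cohesin is a ring that holds sister chromatids together and forms chromatin loops. NIPBL loads the ring onto DNA, and CTCF is the zinc finger protein at which looping often halts. H3K4me1 marks enhancers and the flanks of active promoters. Among the genes, NCL (nucleolin) and NPM1 (nucleophosmin) are abundant nucleolar proteins, FBL (fibrillarin) is the enzyme that methylates ribosomal RNA, and NOP56 is its partner in small nucleolar ribonucleoproteins. ODC1 makes putrescine, CAD catalyses the opening steps of pyrimidine synthesis, and LDHA turns pyruvate into lactate.

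The promoter sequences of the 7 genes show which starts carry the motif that MYC binds best, and 5 of them are printed for that reason. They come from RefSeq on GRCh38.p14, a later build than the peaks, and run from 250 bases before to 50 after the annotated start. All 7 genes matched the table, with 10 promoters in all, because NPM1, ODC1 and LDHA have 2 starts each. The E-box CACGTG, which reads the same on both strands, was searched on both. It was present in 3 of the 10 promoters and in 7.26% of all 35116 promoters of the table. Capitals mark CACGTG in LDHA, ODC1 and FBL, and the AP-1 motif TGANTCA in the alternative promoter of NPM1. The main NPM1 promoter carries neither and is shown in lower case throughout.
LDHA promoter, chr11:18394313-18394612, plus strand: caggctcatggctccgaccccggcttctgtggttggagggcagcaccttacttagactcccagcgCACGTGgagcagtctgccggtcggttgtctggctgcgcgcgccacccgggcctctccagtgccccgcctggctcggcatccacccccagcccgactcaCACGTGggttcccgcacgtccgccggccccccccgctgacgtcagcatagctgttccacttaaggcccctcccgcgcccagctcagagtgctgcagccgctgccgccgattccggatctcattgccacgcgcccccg
ODC1 promoter, chr2:10447963-10448262, minus strand: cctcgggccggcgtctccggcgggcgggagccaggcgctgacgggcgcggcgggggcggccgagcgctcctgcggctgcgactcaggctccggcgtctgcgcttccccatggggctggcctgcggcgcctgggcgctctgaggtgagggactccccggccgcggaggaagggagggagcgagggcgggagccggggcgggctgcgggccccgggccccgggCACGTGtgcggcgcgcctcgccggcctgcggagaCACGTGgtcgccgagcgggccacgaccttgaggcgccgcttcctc
FBL promoter, chr19:39846330-39846629, minus strand: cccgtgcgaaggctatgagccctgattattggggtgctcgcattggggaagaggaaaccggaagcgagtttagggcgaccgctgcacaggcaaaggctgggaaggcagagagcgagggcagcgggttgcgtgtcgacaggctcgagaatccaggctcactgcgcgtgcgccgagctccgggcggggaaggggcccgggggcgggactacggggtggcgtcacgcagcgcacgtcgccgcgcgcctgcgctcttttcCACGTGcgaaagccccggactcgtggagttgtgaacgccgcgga
NPM1 promoter, chr5:171387599-171387898, plus strand: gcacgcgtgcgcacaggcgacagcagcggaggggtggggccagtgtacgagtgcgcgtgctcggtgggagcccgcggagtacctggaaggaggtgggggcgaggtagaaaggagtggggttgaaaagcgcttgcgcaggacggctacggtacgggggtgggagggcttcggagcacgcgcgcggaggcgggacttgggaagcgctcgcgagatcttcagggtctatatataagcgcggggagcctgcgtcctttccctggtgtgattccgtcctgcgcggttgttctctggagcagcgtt
NPM1 alternative promoter, chr5:171386866-171387165, plus strand: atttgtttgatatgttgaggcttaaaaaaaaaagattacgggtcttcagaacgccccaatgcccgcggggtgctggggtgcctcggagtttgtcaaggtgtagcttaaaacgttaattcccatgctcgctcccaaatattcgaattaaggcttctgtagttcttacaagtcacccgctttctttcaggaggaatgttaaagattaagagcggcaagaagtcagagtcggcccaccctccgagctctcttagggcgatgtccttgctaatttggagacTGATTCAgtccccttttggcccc

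The LDHA promoter held 2 copies of CACGTG, which began 185 and 87 bases upstream of the start. In ODC1 the promoter of the downstream start also held 2 copies, beginning 29 bases upstream and 5 bases downstream of that start. FBL held 1 copy, 6 bases downstream of the start. No CACGTG was found in the window of NCL, NPM1, NOP56 or CAD, and the windows of the other listed starts of ODC1 and LDHA held none either. TGANTCA, searched on both strands, was found in 1 of the 10 promoters, 27 bases downstream of the alternative NPM1 start, and in 7.71% of all promoters. These matches describe the letters of a short window. The wider E-box family CANNTG, of which CACGTG is a member, was found in 4 of the 10 promoters, those 3 and NOP56, and in 68.7% of all promoters. The matches are no record of binding, and their place relative to the hg18 peaks was not measured because coordinates of the builds were not combined.

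Peak strength is given as the authors' tag count, their significance on the −10 × log10 p scale and their fold enrichment over the local IgG background. Rank is the place of a peak by significance in its own list, and ranks in lists of different length are not compared. Distances run from the peak summit to the fixed position, "below" meaning towards lower and "above" towards higher hg18 coordinates. A peak was at the gene position when any base of it lay within 2 kb. An hg18 gene annotation was not used here, so exons and introns are not assigned to the peaks. In the RefSeq gene order, small nucleolar RNA genes lie inside NCL (SNORA75, SNORD20 and SNORD82), ODC1 (SNORA80B) and NOP56 (SNORD110, SNORA51, SNORD86, SNORD56 and SNORD57), and no peak is assigned to either kind of gene.

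Depth and antibodies differed between the libraries compared. After removal of repeated positions, the control libraries held 3629966 to 19926326 tags (median 9603820) and the siRAD21 libraries 1747770 to 15263937 (median 7006171). The rabbit IgG used as background held 8916252 and 4101535 tags, and the goat IgG used for CTCF and RFX2 held 3914714 and 3293704. The H3K4me1 libraries carry the catalogue number of an antibody generally known for histone H3 of any modification, and the MYC libraries that of a mouse antibody where the titles name rabbit, so both targets are named from the titles. The siRNA field of the labels names RAD21 with numbers that run on from library to library, which conflicts with titles and descriptions. Groups follow the titles.

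MYC was at all 7 gene positions under control siRNA and at 6 under RAD21 siRNA, the exception being ODC1. Of these 6, 4 had a siRAD21 MYC peak with a false discovery rate (FDR) under 5%, NCL, NPM1, LDHA and NOP56. JUND had the opposite pattern, with a peak at 0 of 7 gene positions in the control list and at 5 in the siRAD21 list. In the whole siRAD21 JUND list 86.7% of peaks had no control JUND peak beneath them, and at an FDR under 5% JUND was at 1 position. NIPBL was at 0 and 2 positions, RAD21 at 0 and 1, and SMC3 at 1 and 1. The siRAD21 counts of NIPBL and SMC3 were 0 at an FDR under 5%. H3K4me1 was at all 7 under both. Few cohesin peaks were thus called at the gene positions in either condition, and no genome share for windows of that width is given. Within 50 kb, a far wider window, all 7 loci held RAD21 and SMC3 under control siRNA. Of 100-kb bins over the genome, 60.4% held a RAD21 and 61.0% an SMC3 control peak.

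**Figure D1:**
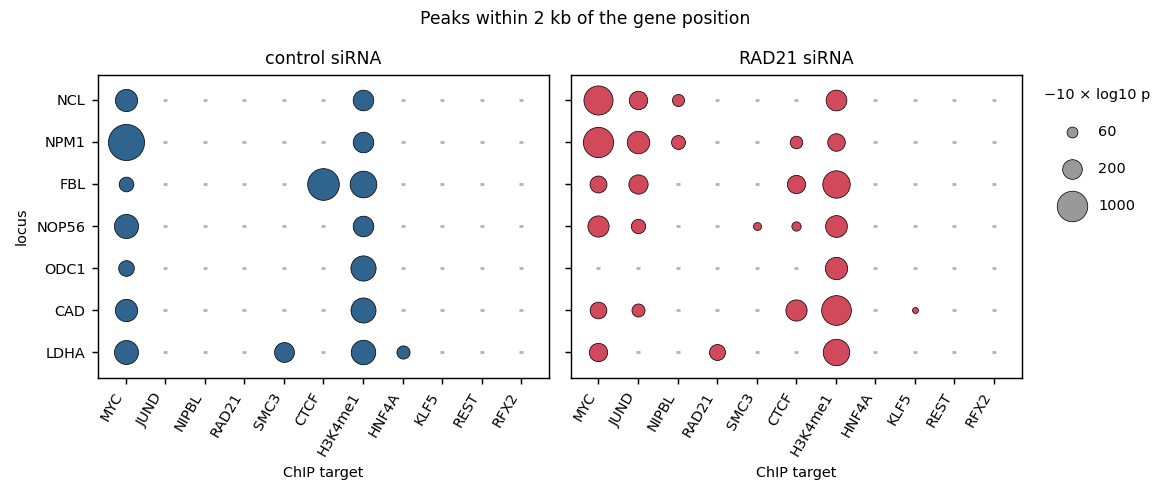
Peaks within 2 kb of each gene position, with loci in rows, targets in columns and the size of each dot giving −10 × log10 p as the authors' peak caller wrote it (blue control siRNA, red RAD21 siRNA). The MYC column is filled at all 7 loci under control siRNA and at 6 under RAD21 siRNA, and the JUND column holds only siRAD21 peaks, at 5 loci.

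NCL had a broad MYC peak under control siRNA, on chromosome 2 from 232034282 to 232038835, with 232 tags, a significance of 303 and a fold of 10.91. Its summit was 318 bp below the position, and it ranked 935 of 13589. Under RAD21 siRNA the MYC peak from 232035925 to 232038794 held 200 tags with a significance of 834 and ranked 14 of 7264. Both libraries therefore placed MYC at NCL, and in the siRAD21 list this was among the strongest MYC peaks of the genome. JUND had no peak there under control siRNA and a peak of 119 tags under RAD21 siRNA, from 232036146 to 232038819, with a significance of 166. NIPBL likewise had a peak only under RAD21 siRNA, from 232036286 to 232037574, with 31 tags and a significance of 66.9. The JUND summit lay 15 bp and the NIPBL summit 39 bp from the MYC summit of that siRNA. H3K4me1 had 188 tags from 232032894 to 232036764 under control siRNA, a peak that ended just below the position, and 132 tags in a peak over the position from 232032571 to 232037397 under RAD21 siRNA. A second siRAD21 peak, from 232037719 to 232039599, had 52 tags, a significance of 173 and no control counterpart.

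Away from the gene, NCL held 2 RAD21 peaks under each siRNA. The stronger, 12.0 kb below the position from 232024298 to 232026495, had 88 tags and a significance of 108 under control siRNA and 35 tags with 121 under RAD21 siRNA. SMC3 and CTCF lay at the same place in both conditions. At 38 kb below the position the control lists placed JUND, NIPBL, KLF5 and H3K4me1 together, where MYC was missing, and of these 4 only H3K4me1 had a siRAD21 peak. The single MYC peak beyond the gene position, 50.1 kb above it, was in the siRAD21 list with 18 tags and a significance of 51.7, close to the limit of calling.

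NPM1 carried the MYC peaks of highest significance and fold of the 7 loci under both siRNAs, although NCL had more tags under RAD21 siRNA. Under control siRNA the peak on chromosome 5 from 170746376 to 170749282 held 448 tags, had a significance of 1948 and a fold of 28.34, and ranked 8 of 13589. Under RAD21 siRNA the peak from 170746653 to 170749049 held 185 tags, had a significance of 968 and a fold of 29.54, and ranked 9 of 7264. The summits, 1138 and 1176 bp above the position, were nearly at the same base. JUND was again found under RAD21 siRNA only, with 136 tags and a significance of 315 from 170746258 to 170748974, and it was the only JUND peak at a gene position with an FDR under 5%. NIPBL had 47 tags and a significance of 83.3 under RAD21 siRNA, from 170746541 to 170748668, and no control peak. The JUND summit was 11 bp and the NIPBL summit 107 bp from the MYC summit, so that MYC, JUND and NIPBL coincided as they did at NCL. CTCF had a weak siRAD21 peak there, with 15 tags and a significance of 70.3.

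H3K4me1 at NPM1 differed in shape between the lists. Under control siRNA it formed a peak of 52 tags from 170745586 to 170747159 and a second of 167 tags from 170748602 to 170752433, with 1442 bp between them that held the MYC summit. Under RAD21 siRNA a single peak of 157 tags from 170745258 to 170751804 covered the whole stretch. RAD21 lay at a distance, with 4 control peaks, the strongest 44.8 kb below the position from 170701381 to 170702926 (96 tags, significance 585). That site had 21 RAD21 tags and a significance of 81.2 under RAD21 siRNA, and 2 of the 4 RAD21 peaks had no siRAD21 counterpart. The RAD21 peak nearest the gene, 16.2 kb below, was among those without one.

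FBL had a MYC peak in both lists. Under control siRNA the peak on chromosome 19 from 45027387 to 45030002 held 103 tags with a significance of 91.8 and ranked 6213 of 13589, and under RAD21 siRNA the peak from 45027615 to 45029868 held 54 tags with 129 and ranked 1376 of 7264. By its rank the control peak was of middle strength and the siRAD21 peak among the stronger of its own list. The FDR was 0.56% for the control peak and 12.85% for the siRAD21 peak, so the ranks do not show stronger binding under RAD21 siRNA. JUND, missing under control siRNA, had 72 tags and a significance of 189 under RAD21 siRNA, from 45027918 to 45029736, with its summit 337 bp from that of MYC. NIPBL, RAD21 and SMC3 had no peak at the FBL position under either siRNA. CTCF stood beside the gene in both lists, with 228 tags and a significance of 1162 from 45024638 to 45028755 under control siRNA, where its summit was 2000 bp from the MYC summit. Under RAD21 siRNA, CTCF had weaker separate peaks there, including 28 tags with a significance of 161 and 22 tags with 104.

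H3K4me1 had 2 peaks at the FBL position under each siRNA, the upper of which covered it. The peak nearest the position had 154 tags from 45028750 to 45030795 under control siRNA and 81 tags from 45028781 to 45030783 under RAD21 siRNA. FBL had the most distant cohesin of the 7 loci, since its only RAD21 peak was 35.4 kb above the position, from 45063697 to 45065101. It had 58 tags and a significance of 186 under control siRNA and 18 tags with 66.4 under RAD21 siRNA. SMC3 at that place had 55 tags under control siRNA and no siRAD21 peak, and CTCF was there under both.

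NOP56 had a compact control MYC peak on chromosome 20 from 2579726 to 2581057, with 109 tags, a significance of 408, a fold of 17.63 and rank 557 of 13589. Under RAD21 siRNA MYC had 2 peaks, from 2580022 to 2581111 with 40 tags and a significance of 259, and from 2581355 to 2582608 with 33 tags and 166. The former overlapped the control peak and its summit was 430 bp below the position, against 441 bp for the control summit. JUND had 22 tags and a significance of 87.4 under RAD21 siRNA, from 2580272 to 2581076, and no control peak. SMC3 had a siRAD21 peak of 12 tags and a significance of 51.6, from 2581317 to 2582048, which ranked 11988 of 12548 and so stood near the end of its list. CTCF had 9 tags and a significance of 54.2 there under RAD21 siRNA.

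Outside the gene position, NOP56 was the locus where no control cohesin peak had a siRAD21 counterpart. None of the 4 RAD21 control peaks and none of the 4 SMC3 control peaks overlapped a siRAD21 peak, and 3 of 5 CTCF control peaks had none either. Over the genome 46.6% of RAD21, 28.4% of SMC3 and 63.1% of CTCF control peaks had a siRAD21 counterpart. SMC3 also had none for its 3 control peaks at LDHA and its 1 at FBL. The strongest of the RAD21 peaks, 35.9 kb above the position from 2616177 to 2617636, had only 37 tags and a significance of 138, and the nearest was 5.4 kb below the position. NIPBL behaved differently. Its peak 11.8 kb above the position, from 2591970 to 2593434, had 205 tags and a significance of 495 under control siRNA, rank 122 of 11694, and 84 tags with 236 under RAD21 siRNA. It was the only one of the 7 NIPBL control peaks at the loci with a siRAD21 counterpart, and no RAD21 or SMC3 peak overlapped it.

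H3K4me1 at NOP56 began above the position under control siRNA, with 212 tags from 2582002 to 2585539. Under RAD21 siRNA the nearest peak by summit had 20 tags from 2579232 to 2580679, and a stronger peak of 129 tags ran from 2581430 to 2584757. A MYC peak 47.6 kb above the position, with 15 tags and a significance of 60.6, was in the control list only. A MYC peak 6.3 kb above, with 19 tags and 53.4, was in the siRAD21 list only, with a NIPBL summit 68 bp away.

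ODC1 stood apart from the other loci, because none of its 5 MYC control peaks had a siRAD21 counterpart. Over all MYC control peaks of the genome only 28.9% had one, so a missing counterpart was common. At the gene position on chromosome 2 there were 2 control peaks, from 10504268 to 10505358 with 23 tags and a significance of 58.2, and from 10506136 to 10507646 with 31 tags and 106. They ranked 11263 and 5110 of 13589, with folds of 7.69 and 7.35, and had the fewest tags of the MYC control peaks at gene positions. The siRAD21 MYC library was about as deep as the control after filtering, with 9801218 and 9603820 tags, but held 64% repeated positions against 29%. JUND, NIPBL, RAD21 and SMC3 had no peak at the ODC1 position under either siRNA. H3K4me1 had 2 peaks there in both lists, the one nearest by summit with 112 tags from 10506387 to 10508376 under control siRNA and 88 tags from 10506265 to 10508857 under RAD21 siRNA.

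The distal MYC peaks of ODC1 fell on crowded sites. The strongest, 39.3 kb below the position from 10465580 to 10467265, had 34 tags and a significance of 67.0. At this site 8 targets overlapped under control siRNA, namely MYC, JUND, NIPBL, RAD21, SMC3, CTCF, KLF5 and H3K4me1. Under RAD21 siRNA 5 of these had a peak there, JUND, RAD21, SMC3, CTCF and H3K4me1, while MYC, NIPBL and KLF5 had none. JUND at this site had 19 tags in the control list and 44 in the siRAD21 list, and it was the only JUND control peak of the 7 loci with a siRAD21 counterpart. A further MYC peak 10.2 kb above the position overlapped NIPBL, KLF5 and H3K4me1 under control siRNA, and none of these 4 had a siRAD21 peak there.

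The RAD21 peaks of ODC1 were the strongest of the 7 loci by significance. RAD21 had 222 tags and a significance of 1233 at 13.3 kb below the position, from 10491654 to 10493640, rank 1672 of 36204, and 177 tags with 936 at 39.1 kb below. Both sites had RAD21 peaks under RAD21 siRNA, the former with 77 tags and a significance of 323, rank 2091 of 19752. SMC3 and CTCF were at both sites under both siRNAs. At ODC1 the main RAD21 sites were thus called in both lists and the MYC sites in the control list only. NOP56 showed the reverse, with MYC at the gene in both lists and RAD21 in the control list only.

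CAD had a control MYC peak on chromosome 2 from 27292759 to 27295289, with 184 tags, a significance of 308 and a fold of 14.88, rank 905 of 13589. Under RAD21 siRNA the peak from 27293378 to 27295180 held 63 tags with a significance of 125, rank 1481 of 7264. The summits were 55 and 67 bp above the position. JUND had a siRAD21 peak only, with 58 tags and a significance of 74.2 from 27293355 to 27294779, its summit 27 bp from that of MYC. CTCF, also found under RAD21 siRNA only, had 28 tags, a significance of 259 and a fold of 47.34, with a summit 26 bp from MYC. KLF5 had a siRAD21 peak of 8 tags and a significance of 50.1. NIPBL, RAD21 and SMC3 had no peak at the CAD position under either siRNA.

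A second MYC site of CAD, 6.0 kb below the position, ran from 27287258 to 27290334 under control siRNA with 112 tags and a significance of 190. Under RAD21 siRNA MYC had 28 tags and a significance of 89.0 there, and 5 targets overlapped, MYC, JUND, NIPBL, CTCF and H3K4me1. JUND had 122 tags and a significance of 422, rank 93 of 12319, which made it the most significant JUND peak of the 7 loci. Its summit was 7 bp, that of NIPBL 21 bp and that of CTCF 22 bp from the MYC summit. In the control lists only MYC, SMC3 and H3K4me1 overlapped at this site. The strongest RAD21 control peak of the locus, 25.9 kb below the position from 27267271 to 27268618, had 67 tags and a significance of 220, and 25 tags with 129 under RAD21 siRNA.

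H3K4me1 at CAD was 62 tags from 27292425 to 27293807 and 148 tags from 27294158 to 27295939 under control siRNA, with the MYC summit in the 350 bp between them. Under RAD21 siRNA it was a single peak of 154 tags from 27292520 to 27295971, with a significance of 903. The MYC summit of that library lay inside it.

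LDHA had a control MYC peak on chromosome 11 from 18371622 to 18374912, with 215 tags, a significance of 398, a fold of 9.95 and rank 581 of 13589. Under RAD21 siRNA the peak from 18371807 to 18374871 held 132 tags with a significance of 162 and ranked 876 of 7264. Its summit was 120 bp below the position, against 71 bp under control siRNA. LDHA was the only one of the 6 loci with a retained MYC peak that had no JUND peak at the position, and none anywhere within 50 kb under either siRNA. It was also the only locus with RAD21 at the gene position. RAD21 had 60 tags and a significance of 111 under RAD21 siRNA, from 18372255 to 18375193, and no control peak, while SMC3 had 143 tags and a significance of 208 under control siRNA, from 18372654 to 18374972, and no siRAD21 peak. Their summits were 872 and 869 bp above the position, at the same place but in opposite lists.

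HNF4A, a nuclear receptor of intestinal epithelium, had a control peak at the LDHA position with 45 tags and a significance of 75.2. H3K4me1 had 225 tags from 18369481 to 18372713 and a further peak that began 428 bp beyond it under control siRNA, with the MYC summit between them. Under RAD21 siRNA the nearest peak, with 139 tags from 18371679 to 18375989, covered that gap. The strongest distal RAD21 peak, 15.7 kb above the position from 18388274 to 18389154, was weak, with 28 tags and a significance of 73.0 under control siRNA and 14 tags with 52.2 under RAD21 siRNA.

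**Figure D2:**
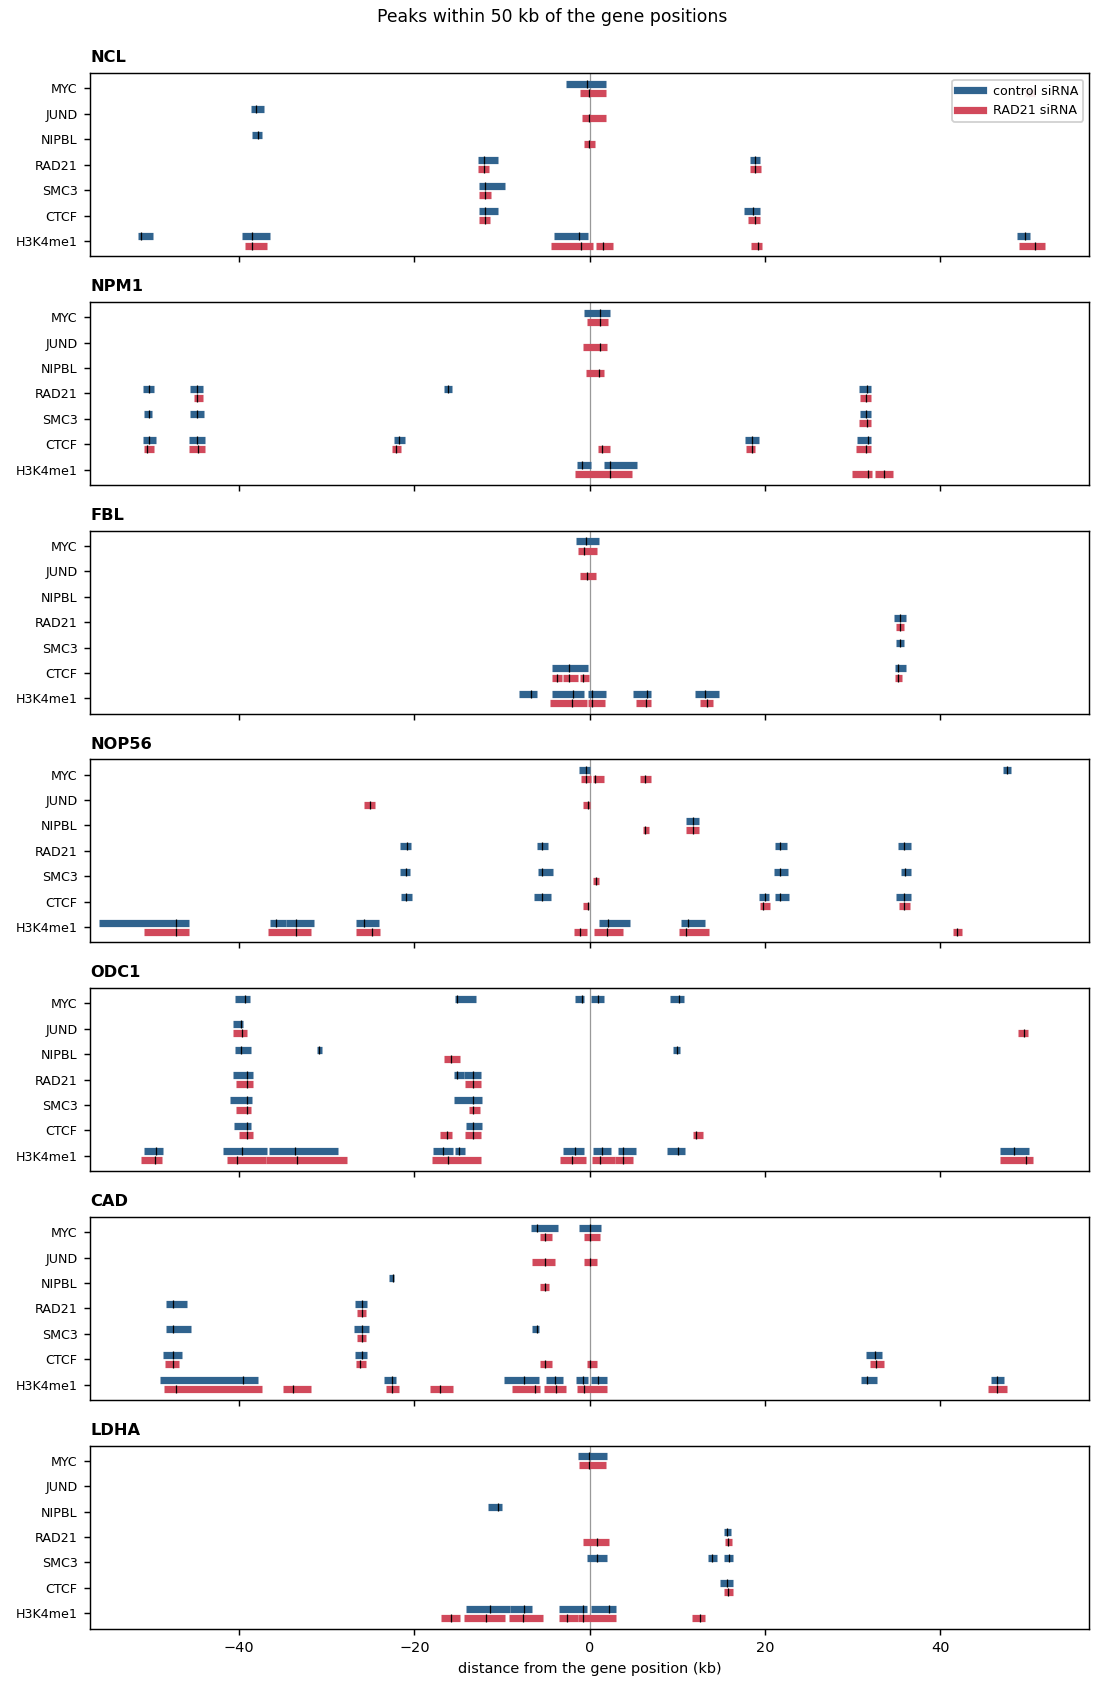
Peaks of MYC, JUND, NIPBL, RAD21, SMC3, CTCF and H3K4me1 across 50 kb on each side of the 7 gene positions, drawn as bars at their true width with a black tick at the summit (x axis, distance from the gene position in kb; blue control siRNA, red RAD21 siRNA). ODC1 shows blue MYC bars at 5 places with no red bar beneath, and NOP56 shows 4 blue RAD21 bars with none.

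Counted over all 7 loci, MYC had 13 control peaks and 10 siRAD21 peaks. Of the control peaks 7 were overlapped by a siRAD21 MYC peak by at least 1 bp, here called retained, which is 53.8% (95% Clopper-Pearson interval 25.1 to 80.8, counting error only). Over all MYC control peaks the share was 28.9%, which lies inside that interval. Without ODC1 the share was 87.5% (7 of 8), a choice made after seeing the data that removes 5 of the 6 peaks without a counterpart. With lists of equal length, cut to the strongest peaks, it was also 87.5% (7 of 8). That cut drops weak control peaks, most of those of ODC1 among them, so the equal value is not separate support. At an FDR under 5% in both lists it was 30.8% (4 of 13). By an overlap of at least 50%, or by summits within 250 bp, it was 46.2%. Shares over the genome are not given for these settings. The 6 MYC control peaks without a counterpart were the 5 of ODC1 and the distal one of NOP56, and they had 15 to 54 tags each, against 103 to 448 tags for the 7 retained peaks. The siRAD21 MYC library held 64% repeated positions and the control library 29%. The part of this difference in any missing call was not tested.

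JUND had 2 control peaks and 9 siRAD21 peaks at the loci, a ratio of 4.5, against 2.63 over the genome. Of the 9, 8 had no control JUND peak beneath them, and in the whole list the share was 86.7%, so the high number of siRAD21-only JUND peaks was shared by the genome. The JUND libraries differed in depth in the same direction, with 7558614 tags in the control library and 15263937 in the siRAD21 library. No control JUND peak of the series had an FDR under 5%, and 718 siRAD21 peaks did. The contribution of depth to the siRAD21-only peaks was not tested. When the longer list was cut to the length of the shorter, 3 of the 7 gene positions had JUND under RAD21 siRNA and none under control siRNA. This cut does not equalise depth or the IgG background, and no genome share for the cut lists is given.

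At NCL, NPM1, FBL, NOP56 and both CAD sites the siRAD21 JUND peak overlapped a siRAD21 MYC peak. At the crowded ODC1 site it overlapped MYC of the control list only, and the JUND peaks 25.1 kb below NOP56 and 49.5 kb above ODC1 overlapped no MYC peak in either list. Of the 13 MYC control peaks at the loci, 1 overlapped JUND in the control list (7.69%, against 15.3% of all MYC control peaks) and 7 overlapped JUND in the siRAD21 list (53.8%, interval 25.1 to 80.8, against 36.1%). Among the 7 retained MYC peaks 6 overlapped siRAD21 JUND, or 85.7% (42.1 to 99.6), against 71.2% of all retained MYC peaks. Among the 1000 strongest MYC control peaks of the genome the share was 62.9%. The share at the growth genes was therefore like that of strong or retained MYC peaks elsewhere, within its wide interval. Each of the 5 JUND summits at gene positions lay at most 337 bp from a MYC summit in the siRAD21 lists, and 3 of them, at NCL, NPM1 and CAD, within 27 bp.

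**Figure D3:**
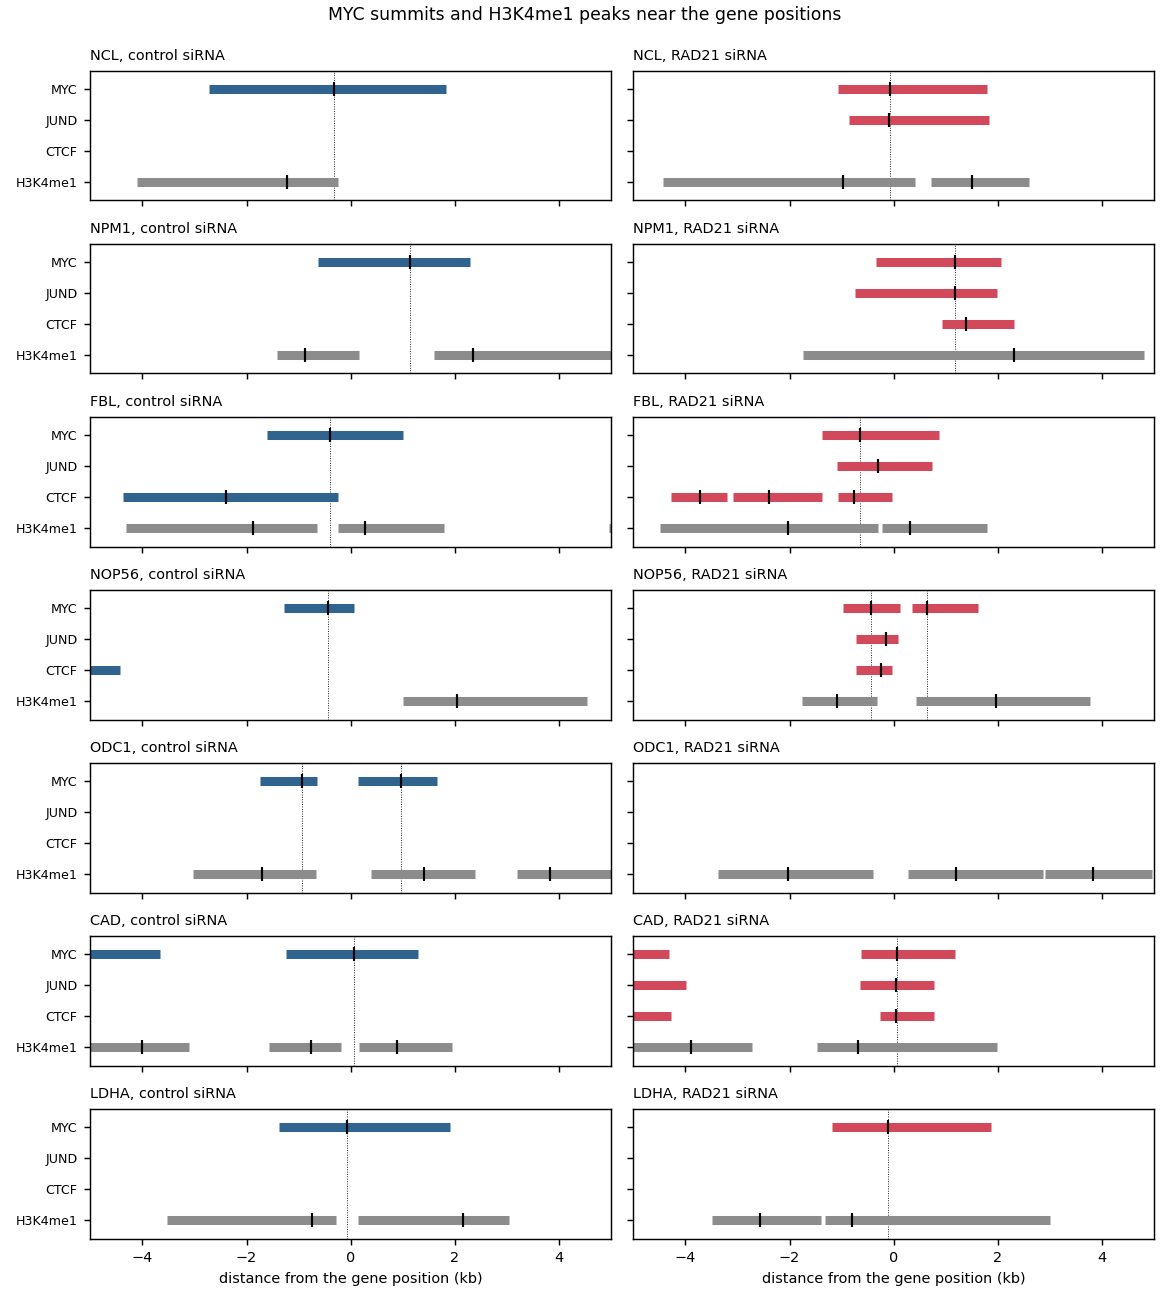
The region around each gene position, with peaks drawn as bars and summits as black ticks (x axis, distance from the gene position in kb; control siRNA in blue and RAD21 siRNA in red, H3K4me1 in grey, the dotted line marking the MYC summit). At NCL, NPM1 and CAD the siRAD21 JUND tick sits within 27 bp of the MYC line, and at NPM1 and CAD the pair of control H3K4me1 bars is replaced by a single siRAD21 bar.

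CTCF was called at 1 of 7 gene positions in the control list and at 4 in the siRAD21 list. The control call, at FBL, counted by the edge of its peak, with the summit 2.4 kb away. In the whole siRAD21 list 12.9% of CTCF peaks had no control CTCF peak beneath them, far below the 86.7% of JUND. At the loci this held for 6 of 25 siRAD21 CTCF peaks, or 24.0% (9.36 to 45.1), an interval that holds the 12.9%. CTCF overlapped 3 of the 13 MYC control peaks in the control list (23.1%, against 26.7% of all). In the siRAD21 list it overlapped 7 (53.8%, interval 25.1 to 80.8), against 25.6% of all and 39.3% of the 1000 strongest. The siRAD21 CTCF peaks at gene positions had 9 to 28 tags. The siRAD21 CTCF library held 4163512 tags and the control library 12025319, and both were set against goat IgG. The part of depth in these counts was not tested. At the loci CTCF retained 17 of 20 control peaks, or 85.0% (62.1 to 96.8), against 63.1% over the genome.

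NIPBL had 7 control and 6 siRAD21 peaks at the loci. Only 1 of the 7 was retained, or 14.3% (0.361 to 57.9), close to the 17.4% of all NIPBL control peaks. Of the 6 siRAD21 peaks 5 had no control counterpart, against 66.3% of the whole list. In the control list 2 of 13 MYC control peaks overlapped NIPBL (15.4%, against 41.5% of all), and in the siRAD21 list 4 did (30.8%, against 21.2%). Both control overlaps were at ODC1. None of the siRAD21 NIPBL peaks at gene positions had an FDR under 5%, and the control list had no such peak anywhere. The NIPBL libraries held 19926326 and 7006171 tags.

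RAD21 had 17 control peaks at the loci and 10 siRAD21 peaks, a ratio of 0.588 against 0.546 over the genome. SMC3 had 17 and 6, a ratio of 0.353 against 0.323. The numbers of cohesin peaks at the growth genes thus stood in the ratio of the series as a whole. RAD21 retained 9 of 17 peaks (52.9%, 27.8 to 77.0, against 46.6%) and SMC3 5 of 17 (29.4%, 10.3 to 56.0, against 28.4%). CTCF overlapped 15 of the 17 RAD21 control peaks, or 88.2%, against 82.4% in the genome, and 14 of the 17 SMC3 control peaks, or 82.4%, against 78.6%.

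Under control siRNA 2 of the 13 MYC peaks overlapped RAD21 (15.4%, interval 1.92 to 45.4, against 32.9% of all MYC control peaks), both at ODC1. SMC3 overlapped 4 (30.8%, 9.09 to 61.4, against 39.1%). Both genome shares lie inside the intervals, so no difference from other MYC peaks was detectable. From the gene position to the nearest RAD21 summit the distance under control siRNA was 5.4 kb at NOP56, 12.0 kb at NCL, 13.3 kb at ODC1, 15.7 kb at LDHA, 16.2 kb at NPM1, 25.9 kb at CAD and 35.4 kb at FBL. The loci with the nearest and the most distant RAD21 both had a retained MYC peak. Only ODC1 lacked a siRAD21 MYC peak at its gene position, so these loci cannot show whether MYC calls follow this distance.

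**Figure D4:**
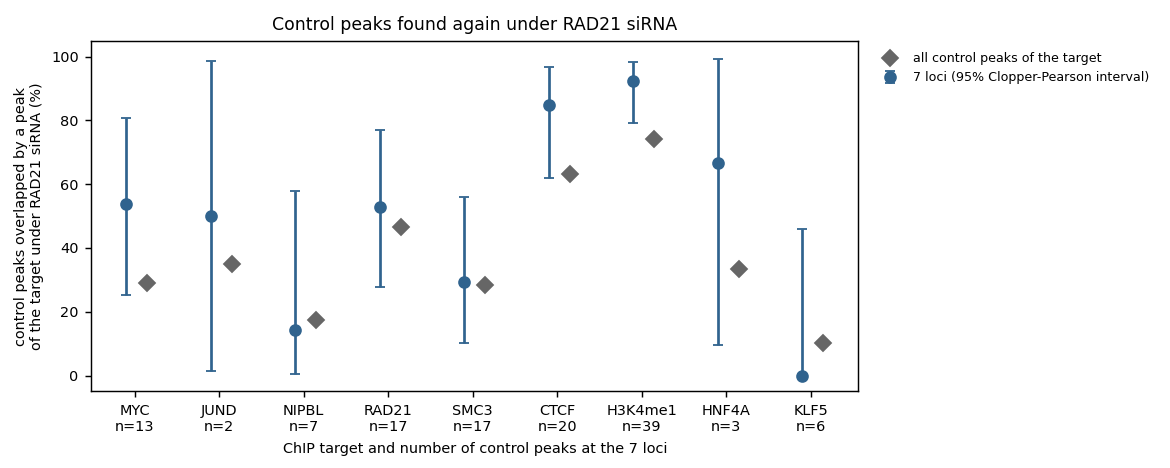
Share of control peaks with an overlapping siRAD21 peak of the same target, in percent on the y axis, with circles for the 7 loci (bars, 95% Clopper-Pearson intervals) and diamonds for all control peaks of the target. The circles of RAD21, SMC3 and NIPBL lie close to their diamonds, those of MYC, JUND, CTCF, H3K4me1 and HNF4A lie above theirs, and that of KLF5 is at 0.

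H3K4me1 had 39 control and 41 siRAD21 peaks at the loci, a ratio of 1.05 against 0.877 over the genome. A siRAD21 peak overlapped 36 of the 39, or 92.3% (79.1 to 98.4), against 74.3% of all H3K4me1 control peaks. The interval counts neighbouring peaks as independent, although a single siRAD21 peak can match several of them. Only 31 siRAD21 peaks at the loci overlapped a control peak. The interval therefore cannot decide whether the loci differ from the whole list. With −10 × log10 p of at least 100 in both lists the share at the loci was 84.4%, and within 100 kb it was 84.1%. By summits within 250 bp of each other the share at the loci was 56.4%. The 3 control peaks with no counterpart were at FBL, ODC1 and CAD, none of them at the gene position. The peaks covered 121345 bp of the loci under control siRNA and 137144 bp under RAD21 siRNA, from 5406 bp at NPM1 to 30355 bp at ODC1 in the control list. ODC1 was thus both the locus with most H3K4me1 and the locus without a MYC call under RAD21 siRNA.

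H3K4me1 overlapped 11 of the 13 MYC control peaks in the control list (84.6%, against 86.1% of all). The place of the MYC summit within H3K4me1 differed between the lists. Under control siRNA 4 of the 13 MYC summits lay in a gap of at most 4 kb between H3K4me1 peaks, or 30.8% (9.09 to 61.4), against 6.62% of all MYC control summits. All 4 were at gene positions, those of NPM1, LDHA, FBL and CAD. The 6.62% covers MYC summits at any place, so it is no background for summits at active promoters, whose share is not given. A further 7 were inside an H3K4me1 peak (53.8%, against 74.4%). Under RAD21 siRNA 0 of 10 lay in a gap, against 6.81% of the list, and 9 of 10 were inside, against 75.1%. H3K4me1 fragments were estimated at 297 bp in the control library and 379 bp in the siRAD21 library, and median peak lengths were 2384 and 2591 bp. Single siRAD21 peaks spanned the gaps at NPM1, LDHA and CAD. At NCL and NOP56 the opposite was seen, with 1 H3K4me1 peak at the position under control siRNA and 2 separate peaks under RAD21 siRNA. At FBL a gap remained, from 45028706 to 45028781, and the MYC summit lay below it. The part of fragment length in these shapes was not tested.

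The windows around the growth genes held a peak more often than the genome at large, for MYC, JUND, NIPBL, RAD21, SMC3 and H3K4me1 alike. MYC control peaks lay within 50 kb of 7 of 7 positions, whereas 28.1% of 30219 bins of 100 kb held a MYC control peak. For JUND the windows went from 2 to 6 of 7, against 13.1% and 25.6% of bins. NIPBL was in 5 of 7 windows under either siRNA, against 24.9% and 15.7%. RAD21 was in 7 and 6 (60.4% and 40.9%), SMC3 in 7 and 5 (61.0% and 29.9%) and H3K4me1 in 7 and 7 (54.8% and 51.7%). The bins include stretches without genes, so they are no background for active genes.

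By the libraries with a peak within 2 kb, NCL and NPM1 were the most alike, sharing 6 of the 7 libraries found at either, a Jaccard index of 0.86. Each pair among NPM1, FBL, NOP56 and CAD shared 6 of 8 libraries, an index of 0.75. ODC1 and LDHA were each most like NCL, with 0.5 and 0.44. By this index the pyrimidine enzyme CAD stood with the nucleolar proteins, while ODC1 and LDHA did not. The index counts each call alike, also siRAD21 calls with an FDR above 5%. With 7 loci it cannot decide whether likeness follows the functions of the genes. The number of different targets at the position went from 2 to 5 at NPM1, NOP56 and CAD, from 2 to 4 at NCL, from 3 to 4 at FBL, from 4 to 3 at LDHA and from 2 to 1 at ODC1. Many of the targets called there under RAD21 siRNA only had an FDR above 5%. These were JUND at NCL, FBL, NOP56 and CAD (each 6.19%) and NIPBL at NCL (24.52%) and NPM1 (15.73%). SMC3 at NOP56 (14.75%) and KLF5 at CAD (38.03%) were also above it. CTCF at NPM1, NOP56 and CAD, JUND at NPM1 and RAD21 at LDHA were under 5%. No genome share for these counts is given.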

How the data were processed

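The submitters' processing notes name CASAVA 1.4, BWA, MACS 1.4 and the build hg18. The authors called peaks library by library with MACS 1.4.0rc2, per the file headers, each ChIP against IgG of matching siRNA and host. The headers give a cutoff of 1e-05 for p, 300 bp for the band width and 1 tag per position. Each deposited peak holds a count of tags, a significance score (−10 × log10 p), a fold enrichment (a linear ratio to background) and, in an unnamed column, the FDR in percent, read as such because its counts under 5% match the labels in all 22 lists.

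Peaks with any base within 50 kb of the 7 hg18 positions were the members. All 7 loci are named in order of role, with the peaks nearest the position within 2 kb and the strongest distal MYC and RAD21 control peaks. Overlap means at least 1 bp. Shares carry 95% Clopper-Pearson intervals. No test between libraries was made. The members and lists were chosen with earlier results of these data known. Other MYC target genes and IgG peaks were not analysed here. The overlap code was tested on simulated data. Python 3.11.15, pandas 2.3.3, numpy 2.4.6, scipy 1.17.1 and matplotlib 3.10.9 were used. Alternatives covered the windows, overlap rule, thresholds, list length and leaving out ODC1.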

Additional observations from a re-analysis of the deposited data

How the results depend on the processing

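Of 139 alternative values 107 were classed as the same as those reported and 32 as moved. The former class was wide. At an FDR under 5% it held a MYC retained share of 30.8%, 84 siRAD21 peaks at the loci, and MYC at 4 gene positions under RAD21 siRNA. The number of peaks at the loci was 75 (control) within 25 kb and 240 (control) and 203 (siRAD21) within 100 kb, and 67 siRAD21 peaks had a −10 × log10 p of at least 100. The retained share of MYC was 87.5% with lists of equal length and 87.5% without ODC1. That of JUND was 0% in both cases. That of SMC3 was 0% at an FDR under 5%, 0% at a −10 × log10 p of at least 100 and 75% with lists of equal length, and that of H3K4me1 was 56.4% by summits within 250 bp. Under RAD21 siRNA, JUND was at 1 gene position at an FDR under 5%, 3 at the p threshold and 3 with lists of equal length. NIPBL and SMC3 were at 0 at either threshold. Within 5 kb, RAD21 was at 1 and SMC3 at 2 control positions, and SMC3 was at 0 with lists of equal length. The share of MYC control peaks overlapping RAD21 was 0% at the p threshold and without ODC1. For NIPBL it was 0% by summits, at the p threshold and without ODC1. For JUND it was 0% in these cases and within 25 kb, and for H3K4me1 it was 15.4% by summits. The cause was not tested, beyond the fewer peaks that a threshold, a shorter list or the missing ODC1 leaves. Leaving out ODC1, and lists of equal length for gene positions, were chosen after seeing the data. Retained shares of JUND and NIPBL at an FDR under 5% could not be given, since their control lists hold no such peak. No paired analysis was possible because each target had 1 library per siRNA.

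Depth limits what a missing peak means: with 9 to 60 tags behind many calls, a peak absent from a list was not detectable at that depth and threshold, and is not shown to be absent from the cells.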

Other observations

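The intestinal factors HNF4A and KLF5, with REST and RFX2, had few or no peaks at the gene positions, and their peaks lay mostly elsewhere in the loci. KLF5, a factor of proliferating intestinal crypts, had 6 control peaks, 4 of them at ODC1, and none was retained, which leaves a share of 0% (0 to 45.9) beside 10.2% over all its control peaks. Its 2 siRAD21 peaks, at FBL and CAD, had 9 and 8 tags. HNF4A had 3 control peaks, at LDHA and CAD, of which 2 were retained (66.7%, 9.43 to 99.2, against 33.4%). The strongest, 39.7 kb below the CAD position, had 65 tags and a significance of 377 under control siRNA and 10 tags with 59.6 under RAD21 siRNA. REST, a repressor of neuronal genes, had no control peak and 1 siRAD21 peak, 31.4 kb above the NPM1 position on a site also held by CTCF, RAD21 and SMC3, with 31 tags and a significance of 130. RFX2, a factor of ciliary genes, had 1 control peak, at FBL, and 2 siRAD21 peaks, at ODC1 and NOP56, with 6 and 7 tags.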
